A study of Mus musculus with 31 samples.

Results

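Metallothioneins and zinc handling are described here through 6 of the 39179 genes in the deposited count table. They were chosen by name: the metallothioneins *Mt1* and *Mt2*, the metal-responsive transcription factor *Mtf1*, the zinc exporter *Slc30a1* and the zinc importers *Slc39a14* and *Slc39a10*. All 6 passed the filter on low counts in tumors and in cultured cells. The study asked how glucocorticoids (GCs) act on 20967 melanoma and whether the GC receptor (GR) of the cancer cells is needed, using 3′ end RNA sequencing of whole tumors and of cells *in vitro*. The line 20967 comes from C57BL/6 mice with an Nras LSL-G12D allele and Tyr::CreERT2, a tamoxifen-inducible Cre under the tyrosinase promoter, and every group below carries this background. The GR KO line was edited in *Nr3c1* with CRISPR-Cas9 and grown from a single cell, and no other GR KO clone was analysed here. *In vivo*, parental or GR KO cells were implanted intradermally into wild-type C57BL/6 mice, which are not described as GR-deficient. The 4 tumor groups of 5 mice each were parental or GR KO, with control treatment (the labels name no agent, and the study's methods name cetraben cream as the topical control) or clobetasol propionate 0.05% ointment 3 times weekly as the GC. Mouse ages are not given in the sources used here. *In vitro*, cells were kept for 48 hours in DMSO (3 parental and 3 GR KO cultures) or with clobetasol propionate, which 2 parental and 3 GR KO cultures received. The library names give a dose of 1 µM and the treatment labels 10 µM. Tumor libraries held 15528066 to 26386770 counted reads and culture libraries 14441166 to 22463188. A count of 0 allows up to 3 counts, or 0.108 to 0.216 CPM by library, a limit that covers counting error only. Nothing in the labels says that the cultures were grown separately, so p-values for cultures measure the spread between these samples, which may be technical.

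Metallothioneins are small cysteine-rich proteins that bind zinc and copper and buffer the free metal in the cell. MTF-1, the product of *Mtf1*, senses zinc and binds metal response elements in metallothionein and *Slc30a1* promoters, and GCs are classical inducers of metallothionein genes. Zinc leaves the cytosol through SLC30 transporters and enters it through SLC39 transporters. *Mt2* (ENSMUSG00000031762, chr8:94172664-94173568, plus strand) and *Mt1* (ENSMUSG00000031765, chr8:94179082-94180327, plus strand, GRCm38) are neighbours with 5513 bases between them. The other genes are *Mtf1* (ENSMUSG00000028890, chr4:124802104-124849800, plus strand), *Slc30a1* (ENSMUSG00000037434, chr1:191906767-191913247, plus strand), *Slc39a14* (ENSMUSG00000022094, chr14:70303469-70351425, minus strand) and *Slc39a10* (ENSMUSG00000025986, chr1:46807544-46892852, minus strand). *Mt1* and *Mt2* transcripts share no run longer than 20 bases, or 17 within their last 300 bases, and no other annotated gene shares a run of 40 bases with either. Reads of these paralogs can therefore be told apart over most of the sequenced end, and a fit of their summed reads is given where it changed a call. The annotated antisense gene Gm45774, which overlaps the locus, is not listed in the table, and the strand setting of the counting is not given in the sources used here.

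Levels are CPM with a common TMM scaling over all 31 libraries. Each transcript gives tags from its 3′ end whatever its length, so CPM of different genes were compared without length correction. Where groups are said not to overlap, the share of all genes without overlap is not given here. Such statements describe the named genes only. A gene was called a DEG at an adjusted p under 0.05 and a fold change of at least 1.5, by the quasi-likelihood (QL) test of edgeR with Benjamini-Hochberg (BH) adjustment over all genes tested, and each log2 value is given with its standard error (SE). *Nr3c1*, the edited gene, had 62.8, 57.6, 43.9, 55.9 and 50.5 CPM in parental control tumors and 20.3, 26.7, 31.2, 33.6 and 23.4 CPM in GR KO control tumors. With GC it had 54.2, 23.5, 48.4, 36.4 and 49.6 CPM in parental and 47.3, 21.4, 57.7, 31.7 and 46.9 CPM in GR KO tumors. In cells, *Nr3c1* had 33.9, 30.6 and 36.3 CPM in parental DMSO cultures, 40.6 and 34.2 with GC, 25.8, 21.6 and 16.6 in GR KO DMSO cultures and 21.4, 22.4 and 12.9 with GC. GR KO libraries lay below parental ones in control tumors and in cells, and the ranges overlapped in GC-treated tumors. The log2 difference of GR KO minus parental was -1.02 (edgeR QL, SE 0.24, BH-adjusted p = 0.0313) in control tumors, -0.02 (edgeR QL, SE 0.24, BH-adjusted p = 0.981) in GC-treated tumors and -0.67 (edgeR QL, SE 0.22, BH-adjusted p = 0.0840) in DMSO cultures, so control tumors alone passed. That call was lost without GR KO control tumor 1 (-0.94), 2 (-1.02) or 5 (-0.97) and without parental control tumor 1 (-0.96), 2 (-1.002), 3 (-1.08), 4 (-1.005) or 5 (-1.03). It was also lost without the 6 tumors of low TMM factor described below, at -0.77 (edgeR QL, BH-adjusted p = 0.713), and DESeq2 called the DMSO cultures as well, at -0.67 (adjusted p = 0.0390). The tags come from the transcript end and the edit was not located in *Nr3c1* here, so their number does not check the knockout.

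*Tsc22d3*, a GC-induced gene used here as a check of the treatment labels, had 14.8, 10.8 and 15.7 CPM in parental DMSO cultures and 119.6 and 116 CPM with GC, against 16.6, 18.7 and 19.8 and 21.1, 14.4 and 16.8 CPM in GR KO cultures. The GC effect on *Tsc22d3* was larger in parental than in GR KO cells by a log2 difference of 3.14 (edgeR QL, SE 0.27, BH-adjusted p = 3.32e-04). In tumors *Tsc22d3* had 87.6, 42.5, 70.8, 87.7 and 66.5 CPM in parental control and 461, 174, 374, 338 and 458 CPM in GC-treated parental tumors, against 59.9, 44.4, 70.9, 94.1 and 61.8 and 247, 244, 205, 166 and 237 CPM in GR KO tumors. It rose with GC by 2.34 (edgeR QL, SE 0.25, BH-adjusted p = 1.61e-05) on the log2 scale in parental and 1.77 (edgeR QL, SE 0.25, BH-adjusted p = 4.03e-04) in GR KO tumors, and these effects differed by 0.57 (edgeR QL, SE 0.34, BH-adjusted p = 0.347). With the tumors of low TMM factor described next left out, the GR KO value was 1.33 (edgeR QL, BH-adjusted p = 0.131) and was not called. Cell type labels were compared with a list of 8 melanocyte lineage markers. In tumors 7 of the 8 were detected and *Tyr* had 0 counts, with summed levels of 45.6 to 70.8 CPM in parental control and 33.9 to 82.8 CPM in GR KO control tumors. With GC the sums were 58.7, 110, 68.0, 80.0 and 73.1 CPM in parental and 35.2 to 64.2 CPM in GR KO tumors. GC-treated parental tumors 2 and 4, which also held the most *Mt1* of their group, had the highest sums there. Their *S100b* was 64.3 and 45.0 CPM, against 12.6 to 19.8 CPM in the rest of the group. In cultures 4 of 8 were detected, *Mlana*, *Dct*, *Tyr* and *Sox10* had 0 counts, and *Mitf* led with a mean of 7.35 CPM. Of the 4 detected, 2 had a mean above the level of 3 counts, while *Tyrp1* had 4 counts in 1 culture and *Pmel* at most 8 in any. The summed level of the 8 markers was 10.4 to 12.9 CPM in parental and 3.19 to 4.96 CPM in GR KO DMSO cultures.

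Among tumors, 6 libraries had a low TMM factor (under 0.95), a cut set after the factors were seen. These factors are those of the scaling among tumors that the fits of tumors use. A low factor accompanied fewer genes with a count in most of the 6. GC-treated parental tumors 2 and 4 had factors of 0.914 and 0.938, with 15918 and 15940 genes detected. GR KO control tumors 1, 2, 3 and 5 had factors of 0.753, 0.816, 0.919 and 0.819, with 13442, 14887, 15150 and 14335 genes. The tumors other than these 6 had factors from 0.975 to 1.13, so the cut fell between 0.938 and 0.975 and not at a wide gap. In the scaling over all 31 libraries, used for CPM, the 6 had 0.949, 0.960, 0.765, 0.835, 0.927 and 0.825, so that 5 of them were under 0.95 there. After seeing the data, the tumor results were fitted again without the pair of GC-treated parental tumors, which held the highest *Mt1* of their group. They were then fitted without all 6, by the same cut in every group. That fit loses GC-treated parental and GR KO control tumors alone. It leaves 1 GR KO control tumor, assumed to vary like the other groups.

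The list of treatment checks held *Nr3c1*, *Tsc22d3* and 2 more GC-induced genes, *Per1* and *Fkbp5*. Of these 4 genes, edgeR called 2 with GC in parental tumors, against 0.779% of all genes tested, 3 in GR KO tumors, against 6.42%, 3 in parental cells, against 0.878%, and 0 in GR KO cells, against 0%. *Fkbp5* had 65.7, 55.4, 73.4, 74.1 and 83.4 CPM in parental control and 193, 37.1, 208, 89.3 and 193 CPM in GC-treated parental tumors, where tumor 2 lay below every control. The log2 fold change of 1.02 (edgeR QL, SE 0.34, BH-adjusted p = 0.183) was not called, and passed without that tumor at 1.26, without tumors 2 and 4 at 1.46 and without the 6 tumors of low TMM factor at 1.48. *Fkbp5* in GR KO tumors had 13.997, 17.2, 33.2, 37.9 and 24.8 CPM without and 125, 75.5, 119, 58.2 and 126 CPM with GC, a rise of 2.03 (edgeR QL, SE 0.35, BH-adjusted p = 0.00269) that was called, though not without the 6 tumors, at 1.52 (edgeR QL, BH-adjusted p = 0.109). The parental minus GR KO difference was -1.01 (edgeR QL, SE 0.48, BH-adjusted p = 0.243), and it shrank to -0.56 without tumors 2 and 4 and to -0.0368 without the 6 tumors. In cells *Fkbp5* had 48.04, 17.1 and 38.0 CPM in parental DMSO cultures, 205 and 142 with GC, 35.4, 48.05 and 28.1 in GR KO DMSO cultures and 39.7, 28.1 and 15.7 with GC. It rose in parental cells by 2.33 (edgeR QL, SE 0.42, BH-adjusted p = 0.0248), a call lost without DMSO culture 2 (2.00), DMSO culture 3 (2.41), GC-treated culture 1 (2.04) or GC-treated culture 2 (2.57), with a replicate block (2.19) and with the compared groups fitted alone (2.33). In GR KO cells it had -0.39 (edgeR QL, SE 0.38, BH-adjusted p = 0.976), which was -0.71 without GC-treated culture 1 and -0.13 without GC-treated culture 3, and the difference between the genotypes of 2.72 (edgeR QL, SE 0.57, BH-adjusted p = 0.102) was not called, but was by DESeq2 (2.72) and by edgeR with no filter (2.73). *Per1* rose by 2.19 (edgeR QL, SE 0.27, BH-adjusted p = 1.47e-04) in parental tumors, 1.29 (edgeR QL, SE 0.27, BH-adjusted p = 0.00744) in GR KO tumors and 2.77 (edgeR QL, SE 0.27, BH-adjusted p = 3.37e-04) in parental cells, and had -0.23 (edgeR QL, SE 0.25, BH-adjusted p = 0.976) in GR KO cells. That last value ranged over -0.42 to -0.0688 with 1 culture left out. The *Per1* effects differed by 3.00 (edgeR QL, SE 0.37, BH-adjusted p = 0.00415) between cells, which was called, and by 0.91 (edgeR QL, SE 0.37, BH-adjusted p = 0.179) between tumors, which was not. Without the 6 tumors the *Per1* value in GR KO tumors was 0.99 (edgeR QL, BH-adjusted p = 0.225) and was not called.

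In parental tumors GC treatment raised both metallothioneins by similar factors. *Mt1* had 749.7, 738, 615, 669 and 757 CPM in the 5 control tumors and 1831, 2776, 2111, 3239 and 2362 CPM in the 5 GC-treated ones. *Mt2* had 308, 284, 289, 315 and 362 CPM in control and 1020.0, 805, 1207, 1086 and 1055 CPM in GC-treated tumors. Every GC-treated parental tumor lay above every control tumor for both genes, and GC-treated tumors 4 and 2 held the most *Mt1* while tumor 2 held the least *Mt2* of its group. The means were 706 ± 61.6 CPM (SD, n = 5) and 2464 ± 556 CPM (SD, n = 5) for *Mt1*, and 311 ± 31.3 CPM (SD, n = 5) and 1035 ± 146 CPM (SD, n = 5) for *Mt2*. The log2 fold changes were 1.81 (edgeR QL, SE 0.23, BH-adjusted p = 2.53e-04) for *Mt1* and 1.73 (edgeR QL, SE 0.17, BH-adjusted p = 9.19e-06) for *Mt2*. These were the 2 of 6 genes called, against 0.779% of all genes tested. Without the pair of GC-treated tumors of low TMM factor they were 1.55 for *Mt1* and 1.79 for *Mt2*, and both remained called. In whole tumors, fewer cells of a type and less RNA per cell cannot be told apart.

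Reads of *Mt1* and *Mt2* together made up 0.108 ± 0.00593% (SD, n = 5) of all counted reads in parental control tumors and 0.361 ± 0.0388% (SD, n = 5) with GC. Markers of other cells also moved with GC in parental tumors. The 4 neutrophil markers, all detected and led by *S100a8*, summed to 19.5, 65.1, 234, 27.7 and 1232 CPM in control and 11.8, 8.01, 9.86, 20.4 and 38.1 CPM in GC-treated tumors, and *S100a8* and *S100a9* fell. The 6 fibroblast markers, all detected and led by *Col3a1*, summed to 6575, 7364, 6681, 7388 and 6747 CPM in control and 10787, 7940.4, 10664, 7486 and 10617 CPM in GC-treated tumors, and none of them was called by edgeR. Most of that sum came from 3 collagens, and *Lum* and *Pdgfra* had lower values with GC, at log2 fold changes of -0.40 and -0.29. *Col3a1* in GC-treated tumors 2 and 4, at 2608 and 2138 CPM, did not exceed most of the controls (2534 to 3272 CPM). The control tumors varied widely in neutrophil markers, 3 of them above every GC-treated tumor, while every GC-treated tumor had a higher fibroblast marker sum than every control. The 4 endothelial markers, all detected and led by *Kdr*, summed to 63.0, 51.3, 44.6, 66.1 and 44.5 CPM in control and 35.2, 17.3, 25.2, 32.04 and 33.9 CPM in GC-treated tumors, every GC-treated tumor below every control, and edgeR called 0 of them, *Kdr* having a log2 fold change of -1.02 (edgeR QL, BH-adjusted p = 0.0674). The 4 leukocyte markers, all detected and led by *Laptm5*, summed to 1234, 1023, 962, 1252 and 919 CPM in control and 967, 861, 522, 1184 and 667 CPM in GC-treated tumors, and *Coro1a* fell. Of the markers of other cell types, edgeR called *Krt15* of keratinocytes, which rose. Of all genes tested, 0.779% were called. Of these 4 marker calls *Krt15* held whichever tumor was left out and was the 1 call without tumors 2 and 4 or without the 6 tumors of low TMM factor. *S100a9* was lost without control tumor 5 (-2.98), *S100a8* without control tumors 3 (-4.05) and 5 (-2.05) or GC-treated tumors 1 (-3.74), 2 (-3.75), 3 (-3.72) and 4 (-4.18), and *Coro1a* without control tumors 1 (-1.31), 3 (-1.12), 4 (-1.23) and 5 (-1.28) or GC-treated tumors 2 (-1.15), 3 (-1.21), 4 (-1.38) and 5 (-1.17). The part of these cells in the metallothionein levels was not tested.

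In GR KO tumors, whose cancer cells were edited in *Nr3c1* and whose host cells were not, *Mt2* rose with GC and *Mt1* did not pass the test. *Mt1* had 1202, 1368, 1006, 866 and 785 CPM in control and 991, 1379, 599.5, 1119 and 714 CPM in GC-treated GR KO tumors. *Mt2* had 260.5, 328, 328, 427 and 271 CPM in control and 514, 611, 491, 395 and 472 CPM in GC-treated GR KO tumors. For *Mt1*, 2 of 5 GC-treated tumors lay within the control range, 1 above and 2 below it, whereas 4 of 5 GC-treated tumors exceeded every control tumor for *Mt2*, the exception being GC-treated tumor 4 below control tumor 4. *Mt1* had -0.10 (edgeR QL, SE 0.23, BH-adjusted p = 0.831) on the log2 scale and *Mt2* rose by 0.66 (edgeR QL, SE 0.17, BH-adjusted p = 0.0237). The mean of *Mt2* was 323 ± 66.2 CPM (SD, n = 5) without and 497 ± 78.1 CPM (SD, n = 5) with GC. *Mt2* was the 1 of 6 genes called, against 6.42% of all genes tested. The *Mt2* call was lost when 1 of these tumors was left out, at 0.59 and 0.60 without control tumors 1 and 5, and at 0.64, 0.58, 0.67 and 0.66 without GC-treated tumors 1, 2, 3 and 5. Without the 6 tumors of low TMM factor, 4 of them GR KO controls, *Mt2* had a log2 fold change of 0.33 (edgeR QL, BH-adjusted p = 0.690) and *Mt1* a similar one of 0.26 (edgeR QL, BH-adjusted p = 0.847). Neither was *Mt2* called with the compared groups fitted alone, at 0.66 (edgeR QL, BH-adjusted p = 0.0750), nor the pair with reads of *Mt1* and *Mt2* summed, at 0.12 (edgeR QL, BH-adjusted p = 0.746).

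Marker genes moved with GC in GR KO tumors as well. Leukocyte markers summed to 2753, 2013, 1843, 1735 and 1685 CPM in control and 846, 1075, 798, 829.6 and 855 CPM in GC-treated GR KO tumors, and 2 of 4 fell (*Cd52* and *Laptm5*). Fibroblast markers summed to 3505, 3795, 4412, 6848 and 4986 CPM in control and 9734, 7934, 11165, 7081 and 10482 CPM in GC-treated tumors, and 4 of 6 rose. Red cell markers, 4 of 4 detected and led by *Hbb-bs*, summed to 199.5, 242, 192, 269 and 151 CPM in control and 91.4, 35.4, 54.8, 69.6 and 46.8 CPM with GC, and all 4 fell. Endothelial markers summed to 92.9, 79.4, 101, 105 and 82.3 CPM in control and 49.2, 52.1, 46.5, 42.1 and 46.1 CPM with GC, and *Kdr* fell. Every GC-treated GR KO tumor lay below every GR KO control for leukocyte, endothelial and red cell markers and above every control for fibroblast markers. Of the markers of other cell types, *Mrc1*, *Krt1* and *Krt10* rose, and *Cd3d*, *Krt14*, *Cfd* and *Myh4* fell. The marker calls stand beside 6.42% of all genes tested, and many of them depended on single tumors. Of the 18 markers called, 8 were called whichever tumor was left out (*Laptm5*, *Col1a2*, *Col3a1*, *Hba-a1*, *Hba-a2*, *Kdr*, *Krt1* and *Cfd*), each of the 10 tumors cost at least 1 call when left out, and 9 calls were left without GC-treated tumor 3 or without GC-treated tumor 5. When the 6 tumors of low TMM factor were left out, 4 were called (*Hba-a2*, *Hbb-bs*, *Cfd* and *Myh4*), so most of the marker changes were not called in that fit. That fit leaves 1 GR KO control tumor, so fewer calls in it do not show that the changes were smaller. The part of these other cell types in the *Mt2* level was not tested.

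The *Mt1* response to GC differed between the genotypes *in vivo*, in a result that depended on single libraries. The log2 fold change was larger in parental than in GR KO tumors by 1.90 (edgeR QL, SE 0.32, BH-adjusted p = 0.0223) for *Mt1* and by 1.07 (edgeR QL, SE 0.24, BH-adjusted p = 0.0581) for *Mt2*. *Mt1* was the 1 of 6 genes called, against 0.195% of all genes tested, and *Mt2* passed the same threshold with DESeq2 at 1.10 (adjusted p = 5.56e-04), with DESeq2 size factors in edgeR at 1.10, with all 31 libraries at 1.11 and with at least 10 counts in every library at 1.05, as the pair did with summed reads at 1.66. *Mt1* lost its call without GC-treated parental tumor 4 (1.78), parental control tumor 3 (1.86), GR KO control tumor 2 (1.78) or GC-treated GR KO tumor 5 (1.82), while *Mt2* gained one without GR KO control tumor 4 (0.97) or GC-treated GR KO tumor 2 (1.15). Without the pair of GC-treated parental tumors of low TMM factor the *Mt1* difference was 1.65 (edgeR QL, BH-adjusted p = 0.125), and without all 6 such tumors 1.31 (edgeR QL, BH-adjusted p = 0.426), so neither fit called it. The *Mt2* difference was 1.13 and 1.48 in these fits, not called either.

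Without GC, GR KO and parental tumors had similar *Mt2*, with means of 323 ± 66.2 CPM (SD, n = 5) and 311 ± 31.3 CPM (SD, n = 5). *Mt1* was higher in each of the 5 GR KO control tumors than in any parental control tumor, 1045 ± 240.1 CPM (SD, n = 5) against 706 ± 61.6 CPM (SD, n = 5), but the log2 difference of 0.56 (edgeR QL, SE 0.23, BH-adjusted p = 0.177) did not pass. Of those 5 tumors 4 are among the 6 of low TMM factor, and scaling by their factors over all 31 libraries, which are below 1 as well, raises their levels. The *Mt1* difference without the 6 tumors was 0.21 (edgeR QL, BH-adjusted p = 0.968). Without TMM scaling *Mt1* had 919, 1143, 932, 898 and 648 CPM in GR KO and 765, 776, 689, 729.7 and 796 CPM in parental control tumors, and GR KO control tumor 5 was the lowest. By edgeR 0 of the 6 genes were called, against 2.25% of all genes tested, and DESeq2 called 0. Of the 6, *Mt1* alone had an unadjusted p under 0.05, against 20% of all genes tested. With GC the order was the opposite, with log2 differences of -1.35 (edgeR QL, SE 0.23, BH-adjusted p = 0.00479) for *Mt1* and -1.04 (edgeR QL, SE 0.17, BH-adjusted p = 0.00339) for *Mt2*. Both lay lower in each of the 5 GR KO tumors than in any parental tumor, and they were the 2 of 6 genes called, against 0.634% of all genes tested. Without the pair of GC-treated parental tumors of low TMM factor, *Mt1* lost this call at -1.09 (edgeR QL, BH-adjusted p = 0.0773) while *Mt2* had -1.10. Without all 6 tumors of low TMM factor both were called, *Mt1* at -1.10 (edgeR QL, BH-adjusted p = 0.0309) and *Mt2* at -1.11 (edgeR QL, BH-adjusted p = 0.00235). Among markers, *Laptm5*, *Kdr* and *Hba-a2* were higher and *Col3a1* and *Krt1* lower in GR KO controls, against 2.25% of all genes tested. *Cfd* was lower in GR KO tumors with GC, against 0.634%. None of the 5 markers of control tumors was called without the 6 tumors of low TMM factor, at 0.31 for *Laptm5*, 0.92 for *Kdr*, 1.18 for *Hba-a2*, -0.52 for *Col3a1* and -0.89 for *Krt1*, and 1 of 15553 genes was called at all. All 5 calls were also lost when GR KO control tumor 1 or 2 or parental control tumor 2, 3 or 4 alone was left out, and some of them without GR KO control tumor 3 or 5 or parental control tumor 1 or 5. *Cfd* was not called without GC-treated parental tumors 2 and 4 (-1.07). These comparisons use the same tumors as those of GC within a genotype, so a low parental control level would enter both.

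**Figure D1:**
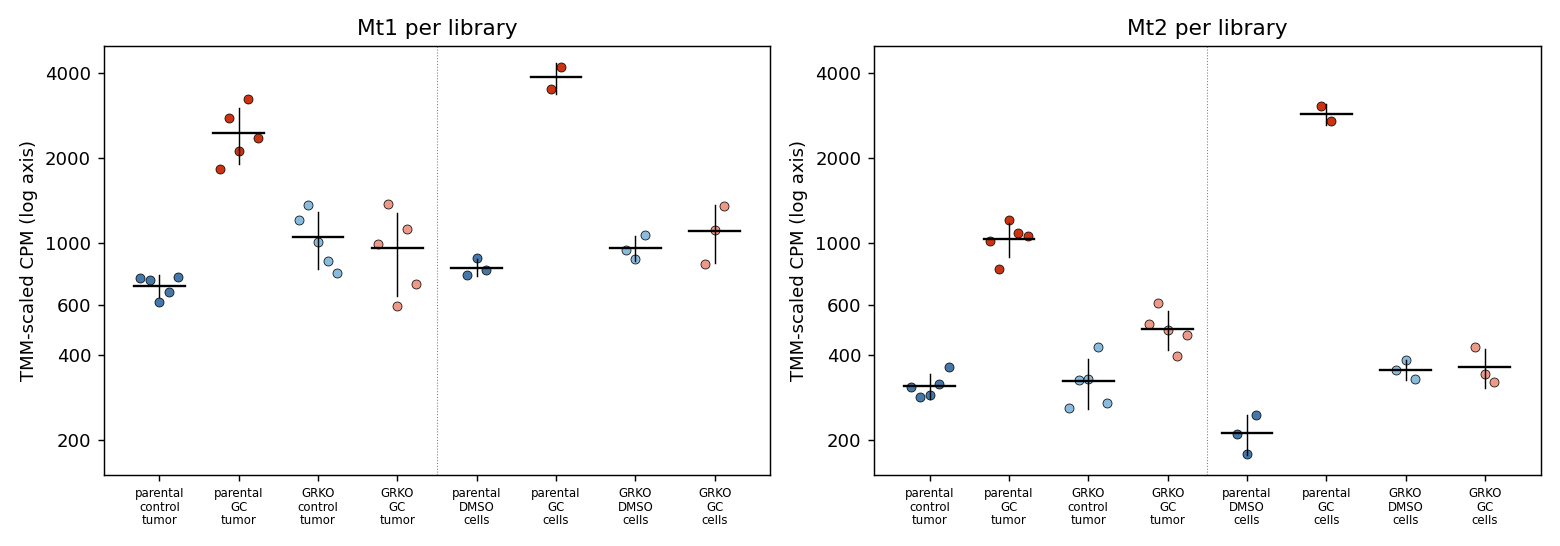
*Mt1* (left) and *Mt2* (right) in TMM-scaled CPM on a log axis in the 8 groups, with 1 point per library, a bar at the mean and a vertical line for the SD. GC-treated parental tumors reach 3239 CPM of *Mt1*, and GC-treated parental cultures reach 3049.6 CPM of *Mt2* against at most 245 CPM with DMSO.

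*In vitro*, GC treatment of parental cells raised both metallothioneins, with a higher estimate for *Mt2* than for *Mt1*. The test of their ratio, given below, did not pass (exact permutation test, p = 0.1, BH-adjusted p = 0.175), and with 3 against 2 cultures it could not. *Mt1* had 772, 883 and 799.6 CPM in the 3 parental DMSO cultures and 3527 and 4200.0 CPM in the 2 cultures with GC. *Mt2* had 209.6, 178 and 245 CPM with DMSO and 3049.6 and 2698 CPM with GC. Both GC-treated cultures exceeded every DMSO culture, and *Mt2* went from well below *Mt1* to 0.642 and 0.865 times its counts in the same libraries. *Mt2* rose 13.5-fold, a log2 fold change of 3.76 (edgeR QL, SE 0.17, BH-adjusted p = 1.58e-06), and *Mt1* rose 4.69-fold, 2.23 (edgeR QL, SE 0.20, BH-adjusted p = 1.74e-04). They were the 2 of 6 genes called, against 0.878% of all genes tested, or 110 genes, which became 63, 78 and 61 without DMSO cultures 1, 2 and 3 and 31 and 36 without GC-treated cultures 1 and 2. Together *Mt1* and *Mt2* took 0.101 ± 0.00359% (SD, n = 3) of counted reads with DMSO and 0.653 ± 0.0144% (SD, n = 2) with GC.

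In GR KO cells neither gene passed the test with GC. *Mt1* had 940.4, 877 and 1064 CPM in GR KO DMSO cultures and 841, 1115 and 1356 CPM with GC, and *Mt2* had 353, 385 and 329 and 428, 341 and 319.9 CPM. The ranges of DMSO and GC overlapped for both genes. By edgeR 0 of 6 genes were called in GR KO cells, against 0% of all genes tested (0 of 12525, with 237 at an unadjusted p under 0.05), no member had an unadjusted p under 0.05, and DESeq2 called 0 of 6 and 0 of all genes. The GC effect was larger in parental than in GR KO cells by a log2 difference of 3.70 (edgeR QL, SE 0.23, BH-adjusted p = 3.48e-05) for *Mt2* and 1.99 (edgeR QL, SE 0.26, BH-adjusted p = 0.00585) for *Mt1*, the 2 of 6 genes called, against 0.295% of all genes tested. *Mt1* lost this call without GC-treated parental culture 2, at 1.86 (edgeR QL, BH-adjusted p = 0.0599), which left 1 culture in that group, assumed to vary like the others.

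Without GC, GR KO cultures held more *Mt2* and more of the exporter *Slc30a1* than parental cultures. *Mt2* was higher by a log2 difference of 0.74 (edgeR QL, SE 0.15, BH-adjusted p = 0.00989), 355 ± 27.9 CPM (SD, n = 3) against 211 ± 33.6 CPM (SD, n = 3). *Slc30a1* had 6.98, 5.71 and 7.66 CPM in parental and 9.54, 11.9 and 11.9 CPM in GR KO DMSO cultures, a log2 difference of 0.70 (edgeR QL, SE 0.20, BH-adjusted p = 0.0499). The groups did not overlap for either gene, which were the 2 of 6 called, against 8.22% of all genes tested. The *Slc30a1* call was lost whichever of the 6 cultures was left out, at 0.72, 0.60 and 0.80 without parental cultures 1, 2 and 3 and 0.81, 0.65 and 0.64 without GR KO cultures 1, 2 and 3. It was also lost with DESeq2 size factors in edgeR (0.70), all 31 libraries (0.71), at least 10 counts in every library (0.70), no filter (0.71), a replicate block (0.70) or the compared groups alone (0.70), edgeR QL giving BH-adjusted p from 0.0501 to 0.358. With reads of *Mt1* and *Mt2* summed, the pair differed by 0.35 (edgeR QL, BH-adjusted p = 0.131) and was not called. Markers differed between these cultures too, beside the 8.22% of all genes tested that were called. Of 5 fibroblast markers tested, *Col1a1*, *Col3a1* and *Dcn* were called lower in GR KO cultures, with summed levels of 289, 175 and 249.9 CPM in parental and 82.6, 87.6 and 71.4 CPM in GR KO DMSO cultures, as were both melanocyte markers tested, *Mitf* and *S100b*, named after their values were seen. *Dcn* did not pass the filter, and so was not tested, with any 1 of the parental DMSO cultures left out. The GR KO line is a clone, and effects of cloning and of GR loss cannot be told apart in DMSO cultures.

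The *Mt2* response to GC was smaller in parental tumors than in parental cells, by a log2 difference of -2.04 (edgeR QL, SE 0.27, BH-adjusted p = 7.77e-05), whereas that of *Mt1* differed by -0.44 (edgeR QL, SE 0.34, BH-adjusted p = 0.676), or -0.67 without GC-treated parental tumors 2 and 4, uncalled in both. *Mt2* was the 1 of 6 genes called in the fit of all 31 libraries, against 0.203% of all genes tested. In that comparison the GC effect of 1 of 6 fibroblast markers was called higher in tumors than in cells. That of 1 of 4 endothelial and 1 of 4 adipocyte markers was called lower. Markers of these 2 lists also had more counts with GC in parental cultures, which hold no host tissue. *Kdr* had 17, 19 and 21 counts with DMSO and 59 and 78 with GC, and *Fabp4* had 0, 0 and 2 and then 80 and 52. Calls on these lists are therefore not a measure of cell types in tumors. The part of the markers in the *Mt2* difference was not tested. With reads of *Mt1* and *Mt2* summed, the pair differed by -0.93 (edgeR QL, BH-adjusted p = 0.242) and was not called. The control level of *Mt2* was higher in tumors, 311 ± 31.3 CPM (SD, n = 5), than in DMSO cultures, 211 ± 33.6 CPM (SD, n = 3), and its GC level was higher in cultures, 2874 ± 249 CPM (SD, n = 2) against 1035 ± 146 CPM (SD, n = 5). Tumors and cultures differ in dose, route and duration of the GC and in the cells present, which cannot be told apart here.

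The ratio of *Mt2* to *Mt1* counts within a library does not depend on scaling. It was 0.411, 0.384, 0.469, 0.470 and 0.479 in parental control tumors and 0.557, 0.290, 0.572, 0.335 and 0.447 in GC-treated ones. In GR KO tumors it was 0.217, 0.239, 0.326, 0.493 and 0.345 with control treatment and 0.519, 0.443, 0.819, 0.353 and 0.660 with GC. The parental groups had close means, 0.443 ± 0.0423 (SD, n = 5) and 0.440 ± 0.127 (SD, n = 5), but the GC-treated tumors spread more widely, with GC-treated tumors 2 and 4 lowest. In GR KO tumors the mean was 0.324 ± 0.109 (SD, n = 5) without and 0.559 ± 0.184 (SD, n = 5) with GC. On the log2 scale, GC minus control was -0.05 (exact p = 0.778, BH-adjusted p = 0.778) in parental and 0.79 (exact p = 0.0397, BH-adjusted p = 0.175) in GR KO tumors by a 2-sided exact permutation test, adjusted over 7 comparisons, and GR KO minus parental was -0.51 (exact p = 0.0635, BH-adjusted p = 0.175) in control and 0.33 (exact p = 0.302, BH-adjusted p = 0.422) in GC-treated tumors.

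Parental DMSO cultures had ratios of 0.272, 0.202 and 0.307, and those with GC 0.865 and 0.642. In GR KO cultures it was 0.375, 0.439 and 0.309 with DMSO and 0.509, 0.306 and 0.236 with GC. Both GC-treated parental cultures exceeded every other culture. The log2 difference of GC minus DMSO was 1.54 (exact p = 0.1, BH-adjusted p = 0.175) in parental and -0.16 (exact p = 0.700, BH-adjusted p = 0.778) in GR KO cells, and that of GR KO minus parental DMSO cultures was 0.53 (exact p = 0.1, BH-adjusted p = 0.175). None of the 7 comparisons passed after adjustment. Divisions of 3 cultures against 2 or 3 allow no exact p under 0.1, and divisions of 5 tumors against 5 none under 0.00794. Adjusted over 7 comparisons, that smallest p in 1 tumor comparison alone would not pass.

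**Figure D2:**
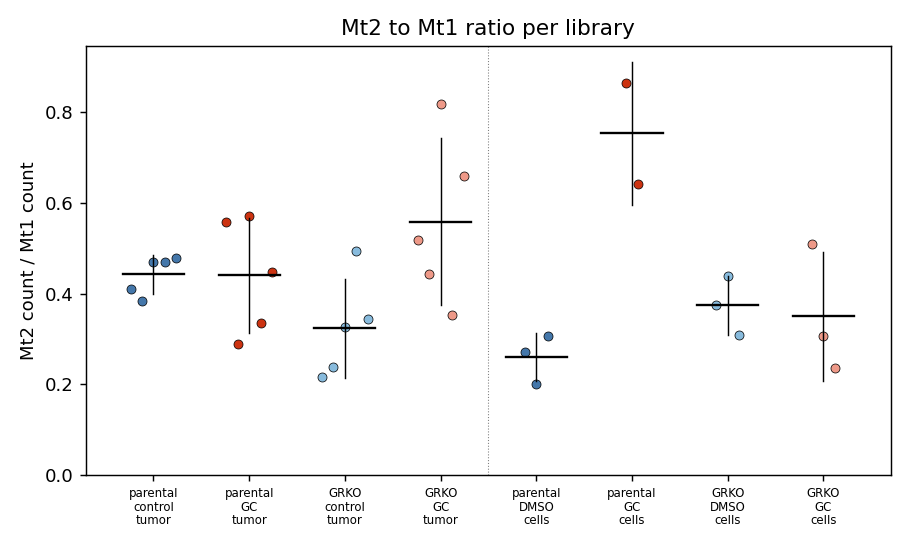
Ratio of *Mt2* counts to *Mt1* counts on a linear axis from 0 in the 8 groups, with 1 point per library, a bar at the mean and a vertical line for the SD. The ratio is highest in a GC-treated parental culture at 0.865 and in GC-treated GR KO tumor 3 at 0.819.

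*Mtf1*, the zinc-sensing activator of metallothionein genes, did not pass the test in any of the 6 comparisons of GC effects within tumors or within cells. It had 7.51, 16.6, 14.03, 15.6 and 11.7 CPM in parental control and 10.6, 14.6, 15.7, 14.7 and 15.5 CPM in GC-treated parental tumors, with a log2 fold change of 0.12 (edgeR QL, SE 0.32, BH-adjusted p = 0.911). In GR KO tumors it had 7.36, 8.52, 10.2, 18.6 and 4.27 CPM with control treatment and 15.5, 13.5, 16.4, 5.78 and 14.2 CPM with GC, with 0.46 (edgeR QL, SE 0.33, BH-adjusted p = 0.401). That value was 0.80 without GR KO control tumor 4 and 0.27 without GR KO control tumor 5, and it changed sign, to -0.41, without the 6 tumors of low TMM factor. The ranges overlapped in both genotypes. In cultures the mean of *Mtf1* was 21.6 ± 4.81 CPM (SD, n = 3) for parental DMSO and 25.6 ± 1.83 CPM (SD, n = 2) for parental GC libraries, 29.7 ± 4.33 CPM (SD, n = 3) for GR KO DMSO and 28.7 ± 4.44 CPM (SD, n = 3) for GR KO GC libraries. Every GR KO DMSO culture lay above the mean of parental ones, but the ranges overlapped (16.1 to 25.0 against 24.7 to 32.9 CPM).

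*Slc30a1*, a zinc exporter of the plasma membrane and a target of MTF-1, was not called in any GC comparison, and its tumor means were lower with GC. In parental tumors it had 21.3, 20.7, 24.9, 21.3 and 21.3 CPM without and 14.5, 8.37, 13.3, 6.16 and 16.9 CPM with GC. Every GC-treated tumor lay below every control, lowest in tumors 4 and 2 of low TMM factor, and the log2 fold change of -0.90 (edgeR QL, SE 0.28, BH-adjusted p = 0.142) did not pass. Without those tumors it was -0.58 (edgeR QL, BH-adjusted p = 0.715). In GR KO tumors *Slc30a1* had 16.4, 21.1, 18.8, 37.5 and 13.7 CPM without and 17.5, 19.0, 10.9, 12.5 and 16.5 CPM with GC, with -0.45 (edgeR QL, SE 0.27, BH-adjusted p = 0.325). That value was -0.17 without GR KO control tumor 4, the highest, and -0.57 without GR KO control tumor 5. Without the 6 tumors of low TMM factor the log2 fold change was -1.18 in GR KO (edgeR QL, BH-adjusted p = 0.0873) and -0.56 in parental tumors (edgeR QL, BH-adjusted p = 0.371). In cells its log2 fold change with GC was 0.33 (edgeR QL, SE 0.22, BH-adjusted p = 0.698) in parental and -0.22 (edgeR QL, SE 0.20, BH-adjusted p = 0.976) in GR KO cultures.

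The importers showed no call with GC or between genotypes. *Slc39a14*, which carries zinc and also iron and manganese into cells, ranged over 15.8 to 32.8 CPM over the 20 tumors and 10.8 to 21.3 CPM over the 11 cultures. Its means were 22.2 ± 4.82 CPM (SD, n = 5) and 22.2 ± 6.05 CPM (SD, n = 5) in parental tumors without and with GC, and 24.1 ± 2.90 CPM (SD, n = 5) and 23.6 ± 7.87 CPM (SD, n = 5) in GR KO tumors. *Slc39a10*, a zinc importer of the plasma membrane, ranged over 3.54 to 25.1 CPM over the 20 tumors and 14.6 to 21.0 CPM over the 11 cultures, and GR KO control tumor 5 was the highest library. Its means were 18.9 ± 1.18 CPM (SD, n = 3) in parental DMSO cultures, 21.0 ± 0.0872 CPM (SD, n = 2) with GC, 16.2 ± 1.48 CPM (SD, n = 3) in GR KO DMSO cultures and 17.1 ± 2.84 CPM (SD, n = 3) with GC. With GC, *Slc39a10* in GR KO tumors had 0.30 (edgeR QL, SE 0.42, BH-adjusted p = 0.697), which was 0.90 without GR KO control tumor 5 and -0.0316 without GC-treated GR KO tumor 5, and 0.97 without the 6 tumors of low TMM factor, none of them called.

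**Figure D3:**
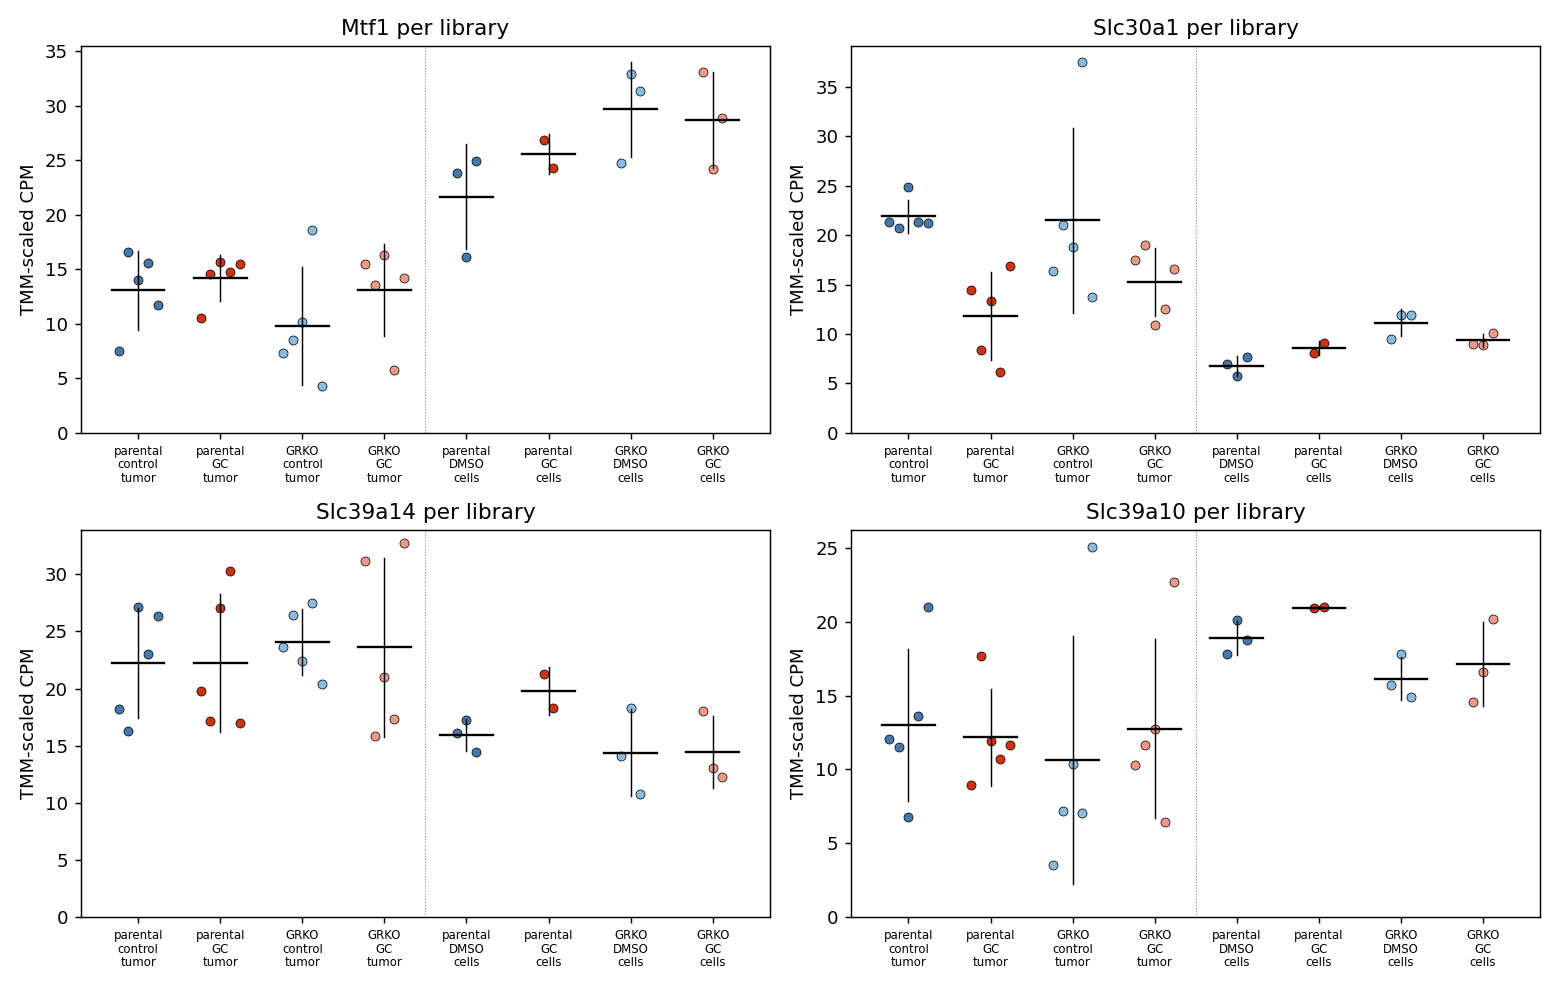
*Mtf1*, *Slc30a1*, *Slc39a14* and *Slc39a10* in TMM-scaled CPM on linear axes from 0 in the 8 groups, with 1 point per library, a bar at the mean and a vertical line for the SD. *Slc30a1* is higher in control tumors (20.7 to 24.9 CPM in parental ones) than in DMSO cultures (5.71 to 7.66 CPM), and *Mtf1* is highest in GR KO cultures.

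Between control tumors and DMSO cultures *Slc30a1* was called in both genotypes and the metallothioneins in neither. In parental samples *Slc30a1* was higher in tumors by a log2 difference of 1.69 (edgeR QL, SE 0.31, BH-adjusted p = 4.66e-05), the 1 of 6 genes called, against 46.7% of all genes tested. *Mt2* differed by 0.56 (edgeR QL, SE 0.18, BH-adjusted p = 0.0106), a 1.48-fold difference under the minimum fold change, and *Mtf1* by -0.73 (edgeR QL, SE 0.33, BH-adjusted p = 0.0665). Leaving out 1 library brought *Mt2* past the rule without parental control tumor 3 (0.61) or DMSO culture 3 (0.68), and *Mtf1* without parental control tumor 2 (-0.86), tumor 4 (-0.84) or DMSO culture 2 (-0.90). *Mt2* also passed with at least 10 counts in every library (0.64) and *Mtf1* with the compared groups alone (-0.77). In GR KO samples 3 of 6 genes were called, against 54.8% of all genes tested: *Mtf1* was lower in tumors by -1.59 (edgeR QL, SE 0.32, BH-adjusted p = 1.20e-04), and *Slc30a1* and *Slc39a14* were higher by 0.95 (edgeR QL, SE 0.30, BH-adjusted p = 0.00840) and 0.74 (edgeR QL, SE 0.26, BH-adjusted p = 0.0182). No GR KO tumor overlapped a GR KO culture for these 3 genes, which is to be read beside the 54.8% of all genes called. The median log2 difference over all genes tested was 0.37 in parental and 0.33 in GR KO samples, and the differences are to be read against it.

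*Slc39a14* lost its call in GR KO samples without DMSO culture 1 (0.72) or 3 (0.57), and *Slc39a10* gained one without control tumor 5 (-1.20). With the 6 tumors of low TMM factor left out, *Slc30a1* differed by 1.70 and was called (it was 0.63 and called without control tumor 4 alone), while *Mtf1* (-0.73) and *Slc39a14* (0.87) were not. T cell and leukocyte markers were detected in tumors and at or near 0 in cultures. All 4 T cell markers had 0 counts in every culture, and the 4 leukocyte markers, with *Cd52* at 0, summed to at most 0.878 CPM. The 6 fibroblast markers each had counts in at least 1 culture, led by *Col3a1* at a mean of 123 CPM, and summed to 63.7 to 289 CPM. As a list they do not set tumors and cultures apart by presence, but 2 of them came near to it. *Dcn* had 0 counts in every GR KO culture and *Lum* at most 2 in any culture. In GR KO control tumors these had 2186 to 7410 and 1543 to 5449 counts. The part of those cells in the tumor levels of zinc genes was not tested.

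Of the other zinc genes, a list of 23 held *Mt3*, *Mt4*, 9 exporters of the SLC30 family and 12 importers of the SLC39 family. In tumors 15 passed the filter and in cultures 12. By edgeR 0 of these were called in any of the 6 GC comparisons. The shares of all genes called were 0.779%, 6.42% and 0.195% in parental tumors, GR KO tumors and their difference, and 0.878%, 0% and 0.295% in cultures. At an unadjusted p under 0.05 there were 2, 3 and 3 of 15 in tumors, against 14.1%, 24.5% and 20.1% of all genes. In cultures there were 2, 0 and 2 of 12, against 8.48%, 1.89% and 8.58%. DESeq2 called 1 in GR KO tumors (*Slc39a4*), against 11% of all genes, and 0 in the others. Their median log2 fold change was -0.17 in parental tumors against 0.00 over all genes tested, 0.48 against 0.05 in GR KO tumors, 0.36 against -0.00 in parental cells and -0.02 against 0.02 in GR KO cells. *Mt4*, a metallothionein of stratified epithelium, had 134, 0, 85, 98 and 18 counts in parental control tumors and 151, 135, 110, 15 and 60 in GC-treated ones, and 0 in every culture except 4 and 14 in the parental ones with GC. *Mt3*, the metallothionein known from brain, had at most 11 counts in any library and 0 in every culture. In parental samples 7 of the 15 were higher and *Slc39a6* was lower in tumors than in cultures, against 46.7% of all genes tested called in either direction, and in GR KO samples 5 (*Mt4*, *Slc30a7*, *Slc39a2*, *Slc39a4* and *Slc39a11*, named after their values were seen) were higher and *Slc39a6* was lower, against 54.8% of all genes tested. *Slc39a6* differed by -0.75 in parental samples and lost that call without DMSO culture 2 (-0.52), and by -0.71 in GR KO samples. Between DMSO cultures, edgeR called 1 of 12 zinc genes, against 8.22% of all genes tested. It was *Slc39a8*, with 0, 2 and 0 counts in parental and 34, 29 and 27 in GR KO cultures. Between tumors of the 2 genotypes edgeR called 0 of 15, against 2.25% of all genes in control and 0.634% in GC-treated tumors. At an unadjusted p under 0.05 there were 1 and 2 of 15, against 20% and 11.4%, and DESeq2 called 0.

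Among 4 other genes described as MTF-1 targets (*Gclc*, *Selenoh*, *Csrp1* and *Ndrg1*), 2 rose with GC in parental cells, against 0.878% of all genes tested, and 0 in parental and GR KO tumors, against 0.779% and 6.42%. At an unadjusted p under 0.05 edgeR had 1 of the 4 (*Csrp1*) in parental tumors, against 14.1% of all genes tested. In GR KO tumors it had 0, against 24.5%, and DESeq2 called 0 in both. *Gclc*, which encodes the catalytic subunit of glutamate-cysteine ligase in glutathione synthesis, had 21.2, 24.8 and 23.5 CPM in parental DMSO cultures, 71.1 and 63.8 with GC, 42.5, 44.5 and 39.0 in GR KO DMSO cultures and 39.6, 38.8 and 38.5 with GC. The GC-treated parental cultures were highest and the parental DMSO cultures lowest, without overlap. *Gclc* rose in parental cells by 1.53 (edgeR QL, SE 0.13, BH-adjusted p = 1.74e-04), and this effect exceeded that in GR KO cells by 1.61 (edgeR QL, SE 0.18, BH-adjusted p = 0.00275). It was higher in GR KO than in parental DMSO cultures by 0.85 (edgeR QL, SE 0.12, BH-adjusted p = 0.00126). With all 31 libraries fitted together the last 2 were not called, at 1.65 (edgeR QL, BH-adjusted p = 0.383) and 0.86 (edgeR QL, BH-adjusted p = 0.198). *Ndrg1*, a gene induced by stress and hypoxia, rose in parental cells by 0.89 (edgeR QL, SE 0.16, BH-adjusted p = 0.0273), but the call was lost whichever of the 5 cultures was left out, at 0.92, 0.83 and 0.88 without DMSO cultures 1, 2 and 3 and 0.86 and 0.91 without GC-treated cultures 1 and 2. It was also lost with all 31 libraries (0.89), a replicate block (0.85) or the compared groups alone (0.89), and DESeq2 called a difference between the genotypes, at 0.88 (adjusted p = 0.0436), where edgeR did not. *Gclc* and *Ndrg1* are named because they were called, after their values were seen. Between control tumors and DMSO cultures *Csrp1* was lower and *Ndrg1* higher in tumors of both genotypes, and *Gclc* was lower in GR KO tumors, or 2 of 4 against 46.7% of all genes tested in parental and 3 of 4 against 54.8% of all genes tested in GR KO samples.

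Copper, which metallothioneins also bind, was followed through 11 genes of uptake, export and delivery, of which 10 were tested in tumors and 9 in cultures. By edgeR 0 were called in any GC comparison, and DESeq2 called 0. Of all genes tested, edgeR called 0.779%, 6.42% and 0.195% in parental tumors, GR KO tumors and their difference, and 0.878%, 0% and 0.295% in cultures. At an unadjusted p under 0.05 there were 0, 1 and 1 of 10 in tumors, against 14.1%, 24.5% and 20.1% of all genes. In cultures there were 1, 0 and 1 of 9, against 8.48%, 1.89% and 8.58%. The median log2 fold changes with GC were -0.10 in parental and -0.05 in GR KO tumors, and 0.24 and 0.05 in cells. Between control tumors and DMSO cultures 5 of 10 were higher in parental tumors (*Slc31a1*, *Slc31a2*, *Atp7a*, *Steap3* and *Steap4*, named after their values were seen), against 46.7% of all genes tested. In GR KO tumors 6 were higher and *Commd1* was lower, by -3.61, a call lost without DMSO culture 2 (-2.23) and without the 6 tumors of low TMM factor at -3.76 (edgeR QL, BH-adjusted p = 0.115). These 7 of 10 stand against 54.8% of all genes tested.

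Over the 20 tumors, the genes with levels most like *Mt1* by Pearson's r of log2(CPM + 1), among 10198 genes with a mean of at least 5 CPM, were *Tigd2* (0.894), *Deptor* (0.865), *Mum1l1* (0.854), *Ctla2a* (0.843) and *Mylk* (0.833). Those most like *Mt2* were *Tsc22d3* (0.905), *Per1* (0.885), *Reg1* (0.883), *8430408G22Rik* (0.878) and *Reg3g* (0.864). *Mt1* and *Mt2* had an r of 0.802 with each other, which ranked 16 for *Mt1* and 20 for *Mt2*, and *Tsc22d3* and *Per1*, both GC-induced, led the list of *Mt2*. Over the 11 cultures, among 8990 genes, those most like *Mt1* were *Fam46b* (0.988), *Mt2* (0.944), *Tsc22d3* (0.943), *Bcl2l1* (0.940) and *Vcan* (0.939), and those most like *Mt2* were *Tmem37* (0.992), *Adamts1* (0.989), *Tsc22d3* (0.988), *Sphk1* (0.977) and *Ncam1* (0.964). By ranks (Spearman), *Mt1* in cultures had 0.518 with *Mt2* and 0.464 with *Tsc22d3*, against 0.818 to 0.955 for the other pairs named in cultures and 0.632 to 0.910 for those in tumors. The GC-treated parental samples had more *Mt1* and *Mt2* than every other sample of their experiment, so a gene that sets this 1 group apart can reach a high r. These values were not tested.

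The 250 bases before the RefSeq start of *Mt1* and of *Mt2* (GRCm38.p6, plus strand) are printed, 5′ to 3′. Capitals mark matches on either strand to the metal response element core TGCRCNC, searched as TGCACNC and TGCGCNC. The *Mt1* window, chr8:94178839-94179088, holds 1 match, and the *Mt2* window, chr8:94172368-94172617, holds 3.
Mt1: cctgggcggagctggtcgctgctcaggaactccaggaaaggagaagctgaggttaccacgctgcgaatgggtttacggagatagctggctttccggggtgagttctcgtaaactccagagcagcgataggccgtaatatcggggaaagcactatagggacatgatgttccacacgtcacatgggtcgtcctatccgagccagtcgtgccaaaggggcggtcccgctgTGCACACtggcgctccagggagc
Mt2: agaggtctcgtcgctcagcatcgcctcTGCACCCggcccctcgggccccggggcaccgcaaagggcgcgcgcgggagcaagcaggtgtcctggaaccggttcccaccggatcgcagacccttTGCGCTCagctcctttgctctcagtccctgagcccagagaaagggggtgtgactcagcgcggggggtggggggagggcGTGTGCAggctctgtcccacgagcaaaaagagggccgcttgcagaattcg
Of 32851 such windows, 10.4% hold TGCACNC, 12.5% TGCGCNC, 21.4% either, and 1.26% hold 3 or more matches. The GC response element, AGAACA and TGTTCT with 3 bases between them, is in neither printed window and in 3 of the 32851 (0.00913%). Annotated starts reach past both windows: 2 of 3 *Mt1* transcripts start 122 and 152 bases after the window's start site, and both *Mt2* transcripts start 46 and 242 bases after it. The 152 bases after the *Mt1* window hold 4 further matches, and the 196 bases between the *Mt2* starts hold 3, so the printed windows do not count every match near these promoters. The *Slc30a1* window holds 1 match and those of *Mtf1* and *Slc39a10* hold 0, which says only that these letters are not in those windows. Windows were found for 5 of the 6 genes, and *Slc39a14* had none.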

How the data were processed

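The 31 libraries were QuantSeq 3′ libraries of 20 tumors and 11 cultures. The authors trimmed reads with Trim Galore 0.6.5, aligned them with STAR 2.6.1d to GRCm38 and deposited featureCounts read counts per gene on Ensembl release 75. The counting version and strand setting are not given in the sources used here. Genes with at least 0.5 CPM in at least 3 libraries were tested with edgeR 4.0.16 in R 4.3.3 (TMM scaling, quasi-likelihood F test, group as the only term), in a fit of 20 tumors, a fit of 11 cultures and a fit of all 31 libraries for tumors against cultures. P-values were BH-adjusted over all genes tested. Calls needed an adjusted p under 0.05 with at least 1.5-fold change. The *Mt2* to *Mt1* ratio was tested by exact permutation. The code was tested on simulated data, where a first target for changed genes of every level was not met and was replaced, after that was seen, by a target for genes of higher counts.

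The named genes were the 6 members and, from lists of other zinc genes, MTF-1 targets and copper genes, those called. Markers were listed for melanocytes, leukocytes, neutrophils, T cells, fibroblasts, endothelium and red cells, and for macrophages, keratinocytes, adipocytes and skeletal muscle. Members and lists were chosen with earlier results of these data known. Alternatives were DESeq2 1.42.0, its size factors, other filters and fold thresholds, a replicate block, other sets of libraries, summed *Mt1* and *Mt2* reads and leaving out each library in turn. Genes of the lists that are given only as part of a count were not refitted without single libraries.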

Additional observations from a re-analysis of the deposited data

Results flagged for a closer look

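Chance alone sets apart about 1 in 20 groups by the spread of their values, and 3 of 24 tests of a member in a tumor group did so. *Mtf1* in GC-treated parental tumor 1 had 10.6 CPM, far below the other 4 tumors of its group. *Mtf1* in GC-treated GR KO tumor 4 had 5.78 CPM, again far below the other 4. *Slc30a1* in parental control tumor 3 had 24.9 CPM, far above the other 4, which lay within 20.7 to 21.3 CPM. None of these libraries is among the 6 of low TMM factor.

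For 4 results the GC effect differed between groups by a test of the difference itself. The *Mt1* effect was larger in parental than in GR KO tumors by a log2 difference of 1.90 (edgeR QL, BH-adjusted p = 0.0223), which was not called without GC-treated parental tumor 4 (1.78), parental control tumor 3 (1.86), GR KO control tumor 2 (1.78) or GC-treated GR KO tumor 5 (1.82). In cells the effects differed by 1.99 for *Mt1* (edgeR QL, BH-adjusted p = 0.00585; not called without GC-treated parental culture 2, at 1.86) and by 3.70 for *Mt2* (edgeR QL, BH-adjusted p = 3.48e-05). The *Mt2* effect in parental tumors minus that in parental cells was -2.04 (edgeR QL, BH-adjusted p = 7.77e-05).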

How the results depend on the processing

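Apart from leaving out single libraries, 695 of 768 values of single genes kept their direction and side of the threshold, 28 lost a call, 13 gained one and 32 changed sign. Of 110 counts of members called, 88 were within 1.5 times the reported count and 22 were not. No ratio of *Mt2* to *Mt1* passed its test in any setting. For cultures this was fixed beforehand, since their divisions allow no exact p under 0.1. For tumors, 1 comparison alone at its smallest possible exact p of 0.00794 would not pass after adjustment over 7 comparisons. With 1 library left out, the smallest adjusted p of the exact permutation test was 0.0556. It was reached for GC in GR KO tumors and for GR KO minus parental controls. The GC calls of *Mt1* and *Mt2* in parental tumors and in parental cells held under every alternative. The values that changed sign were not called in either setting. That of *Mt2* between parental tumors and cells had an adjusted p under 0.05 but too small a fold change. Its change of sign came with reads of *Mt1* and *Mt2* summed, which is not a measure of *Mt2* alone. Except where fewer libraries or another set of tested genes is the alternative itself, the cause was not tested.

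Members called are given with the share of all genes called, which moved too. Between the GC effects of parental and GR KO tumors, 1 member was called as reported (0.195%), 2 by DESeq2, with its size factors, with all 31 libraries or with at least 10 counts in every library (4.92%, 0.251%, 2.72% and 0.616%), and 0 in the fits, chosen after seeing the data, without GC-treated parental tumors 2 and 4 (0%, so no gene at all) or without all 6 tumors of low TMM factor (0.0321%). For GC in GR KO tumors it was 1 (6.42%), and 0 with a minimum fold change of 2, with the compared groups alone or without the 6 tumors (3.66%, 2.62% and 0.553%). For GR KO tumors against GR KO cells it was 3 (54.8%), and 1 with a minimum fold change of 2 or without the 6 tumors (46.3% and 44.8%). Between DMSO cultures it was 2 (8.22%), 0 with a minimum fold change of 2 (5.51%), and 1 with size factors, all 31 libraries, at least 10 counts, no filter, a replicate block or the compared groups alone (8.15%, 3.91%, 6.37%, 6.29%, 6.62% and 7.85%). Between GC-treated tumors it was 2 (0.634%), and 1 without GC-treated parental tumors 2 and 4 (0.158%). For parental tumors against parental cells it was 1 (46.7%), and 2 with at least 10 counts, no minimum fold change or the compared groups alone (48.3%, 48.2% and 54.6%).

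With 1 library left out, the members called ranged from 0 to 2 for the difference of GC effects between tumors, 0 to 1 for GC in GR KO tumors, 1 to 2 for the difference between cells and for parental tumors against cells, 2 to 4 for GR KO tumors against cells, and 1 to 1 between DMSO cultures, where *Slc30a1* was the gene lost. The log2 ratio of *Mt2* to *Mt1* ranged over -0.16 to 0.0845 for GC in parental tumors and -0.46 to 0.0919 for GC in GR KO cells, each including a change of sign.

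Signs of uncalled values changed as follows. Without the 6 tumors of low TMM factor, GC in GR KO tumors gave 0.26 for *Mt1*, -0.41 for *Mtf1* and -0.10 for *Slc39a14*. The difference of GC effects between tumors gave 0.49 for *Mtf1*, 0.62 for *Slc30a1* and 0.0320 for *Slc39a14*, GR KO minus parental controls gave 0.43 for *Mtf1* and 0.69 for *Slc30a1*, and GR KO tumors minus cells gave -0.21 for *Mt1* and 0.21 for *Mt2*. With *Mt1* and *Mt2* summed, GC in GR KO tumors gave 0.12, and tumors minus cells gave 0.0558 in GR KO and -0.0168 in parental samples.

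*Slc39a14* lay near 0. Its GC value in GR KO tumors was -0.0237 by DESeq2, -0.0239 with size factors and -0.0275 with all 31 libraries, and the difference between tumors was 0.0227, 0.0229 and 0.0294. In parental tumors it was 0.00193 with all 31 libraries and 0.00242 with no filter. GC in GR KO cells gave *Ndrg1* -0.00368 by DESeq2, -0.00325 with size factors, -0.0224 with all 31 libraries, -0.0174 with at least 10 counts, -0.0159 with no filter and -0.0149 with the compared groups alone.

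Deviations of same-numbered samples had a mean correlation of 0.29 between GC-treated tumors of the 2 genotypes and 0.33 for GC in parental cells. It was -0.26 between DMSO cultures and -0.09 to 0.12 in the other comparisons. So few samples cannot show whether the numbers pair samples. The library names of the cultures carry letters from A to C, which the labels do not explain. With the replicate number as a block, sign changes were -0.0221 for *Slc39a14* with GC in GR KO tumors, 0.00431 in parental tumors and 0.0264 for their difference, -0.0413 for *Slc39a10* between GC-treated tumors and -0.00300 for *Ndrg1* with GC in GR KO cells.

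Leaving out 1 library changed the sign of uncalled values that ranged, for GC in parental tumors *Mtf1* over -0.0224 to 0.22, *Slc39a10* over -0.28 to 0.16 and *Slc39a14* over -0.15 to 0.0869, for GC in GR KO tumors *Mt1* over -0.26 to 0.0388, *Slc39a10* over -0.0316 to 0.90 and *Slc39a14* over -0.15 to 0.13 and for the difference of GC effects between tumors *Slc39a14* over -0.16 to 0.15. Others ranged, for GR KO minus parental controls *Mt2* over -0.0701 to 0.10, *Slc30a1* over -0.32 to 0.0677 and *Slc39a14* over -0.00362 to 0.18, for GR KO minus parental GC-treated tumors *Mtf1* over -0.20 to 0.0834, *Nr3c1* over -0.17 to 0.14, *Slc39a10* over -0.24 to 0.28 and *Slc39a14* over -0.0561 to 0.25 and for GC in GR KO cells *Mt2* over -0.0570 to 0.12, *Mtf1* over -0.14 to 0.0869, *Ndrg1* over -0.15 to 0.0768, *Slc39a10* over -0.0447 to 0.23, *Slc39a14* over -0.14 to 0.25 and *Tsc22d3* over -0.19 to 0.0697. The rest ranged, for the difference between cells *Slc39a10* over -0.0920 to 0.17, for GR KO minus parental DMSO cultures *Slc39a14* over -0.37 to 0.00664 and for the GC effect in parental tumors minus cells *Mtf1* over -0.27 to 0.0517 and *Slc39a10* over -0.42 to 0.0465.

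Over all genes tested, edgeR and DESeq2 called 124 and 376 for GC in parental tumors, 1022 and 1756 for GC in GR KO tumors, 31 and 784 for the difference of GC effects between tumors, 358 and 1001 for GR KO minus parental controls, 101 and 293 for GR KO minus parental GC-treated tumors, 110 and 251 for GC in parental cells, 37 and 128 for the difference between cells and 33 and 89 for the GC effect in parental tumors minus cells. Without the 6 tumors of low TMM factor edgeR called 59, 86, 5 and 1 for the first 4, and with 1 library left out 60 to 178, 303 to 2411, 0 to 1284 and 61 to 1762, as well as 40 to 114 for GC-treated tumors of the 2 genotypes, 31 to 78 for GC in parental cells, always below the count reported, 14 to 36 for the GC effect in parental tumors minus cells, 17 to 43 for the difference between cells, 594 to 916 for DMSO cultures, and 6438 to 7460 and 7680 to 9266 for parental and GR KO tumors minus cells.

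Apart from DESeq2 and from leaving out single libraries, other counts of all genes that differed by over 1.5 times from those reported were these. With no filter edgeR called 49 for the difference of GC effects between tumors and 64 for the difference between cells. With at least 10 counts in every library edgeR called 66 for the difference of GC effects between tumors, 661 for GR KO minus parental DMSO cultures, 4431 for parental tumors minus cells, 5081 for GR KO tumors minus cells and 12 for the GC effect in parental tumors minus cells. With a replicate block edgeR called 144 for the difference of GC effects between tumors, 160 for GR KO minus parental GC-treated tumors and 63 for GC in parental cells. With all 31 libraries fitted together edgeR called 194 for GC in parental tumors, 1612 for GC in GR KO tumors, 443 for the difference of GC effects between tumors, 903 for GR KO minus parental controls, 164 for GR KO minus parental GC-treated tumors, 2 for GC in GR KO cells, 22 for the difference between cells and 636 for GR KO minus parental DMSO cultures. With the compared groups alone edgeR called 391 for GC in GR KO tumors, 159 for GR KO minus parental controls and 59 for GC in parental cells. With a minimum fold change of 2 edgeR called 583 for GC in GR KO tumors and 238 for GR KO minus parental controls. Without GC-treated parental tumors 2 and 4 edgeR called 32 for GC in parental tumors, 0 for the difference of GC effects between tumors and 25 for GR KO minus parental GC-treated tumors.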
